A study of Mus musculus with 9 samples.

Results

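The leukaemia inhibitory factor (LIF) receptor, JAK and STAT3 pathway was followed through 10 genes, the ligand Lif, the receptor subunits Lifr and Il6st, the kinases Jak1 and Jak2, the transcription factor Stat3, the inhibitors Socs1, Socs2 and Socs3, and the phosphatase gene Ptpn11. Each gene was found by its symbol on 1 row of a table of 48640 rows, and none of the 10 was missing. LIF binds a receptor made of LIFR and gp130, the protein of Il6st, and the receptor-bound JAK kinases phosphorylate STAT3, which enters the nucleus and activates transcription. SOCS3 is itself a STAT3 target and shuts off gp130 signalling, while SHP2, the protein of Ptpn11, binds gp130 and passes the signal to RAS and ERK. LIF in the medium keeps mouse embryonic stem cells in the naive pluripotent state through STAT3.

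The libraries came from mouse embryonic fibroblast cultures that were reprogrammed to induced pluripotent stem cells (iPSCs) and cultured for 75 days, with overexpression delivered by lentivirus and 1 µg/mL doxycycline in the medium of the reprogramming cells. The control iPSCs were derived from empty-vector cultures and were Oct4:GFP+, that is, positive for a green reporter of the pluripotency gene for Oct4. The YAP-culture iPSCs were derived from cultures transduced to overexpress YAP, Yes-associated protein, a transcriptional co-activator held back by Hippo signalling. Their titles state that YAP overexpression was lost, whereas their genotype label reads Oct4:GFP+YAPmCherry+. YAP colonies were the non-pluripotent YAPmCherry+ colonies of YAP-transduced cultures. Both iPSC groups were kept in mouse embryonic stem cell medium on a feeder layer, and the YAP colonies in the same medium on feeders with 1 µg/mL doxycycline. The labels give no strain, promoter, list of reprogramming factors or clone, and do not say that the 3 replicates of a group were separate cultures. P-values therefore cover only how far the samples of a group differ, and that spread may be technical.

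Values are FPKM, that is, fragments normalised to transcript length and to the mapped fragments of each library. Tests were made with limma on log2(FPKM + 1), with Benjamini-Hochberg adjustment over the 13808 genes with a mean of at least 1 FPKM. A gene was called, or rose or fell, at an adjusted p below 0.05 and a log2 fold change of at least 1 in size. Of the 10 genes, 9 passed the filter and Socs1 did not.

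Library totals ran from 509321 to 634471 FPKM, and read depth is unknown. Of 7 naive pluripotency genes examined, Zfp42, Esrrb, Tdgf1, Dnmt3l and Dppa3 passed the filter on low values only through the iPSCs. Their colony means were at most 0.404 FPKM, so no count of calls is read from this list. The summed level of the 7 was 4661 to 5817 FPKM in control iPSCs, 5626 to 6512 in YAP-culture iPSCs and 119.2 to 161.5 in YAP colonies. Most of the colony sum was Nanog, at 125, 114 and 158 FPKM. The 12 genes of the fibroblast and feeder list summed to 39.09 to 46.13 FPKM in the colonies, against 5.512 to 10.92 in YAP-culture iPSCs and 5.622 to 8.056 in control iPSCs. Of the 4 genes tested, Col1a1, Col3a1 and Dcn passed the filter on low values only through the colonies, so no count of calls is read from this list. Thy1 averaged 22.9 FPKM in colonies, 3.485 in YAP-culture iPSCs and 3.88 in control iPSCs. Pdgfrb and Twist1 were untested and went the other way, with colony means of 0.315 and 0.0731 FPKM against 0.905 and 0.773 in YAP-culture iPSCs, and Twist2 was listed at 0 in the 3 colony libraries. Leukocyte genes summed to 124.5 to 151.2 FPKM in colonies, 53.51 to 96.18 in YAP-culture iPSCs and 31.2 to 41.84 in control iPSCs, with Csf1r listed at 0 in every library. Laptm5 made up most of the colony sum, at 124.2 FPKM against 33.87 in YAP-culture iPSCs and 16.83 in control iPSCs, whereas Cd68 was lower in colonies, at 2.805 against 13.72 and 13.97. Lyz2 averaged 9.069 FPKM in colonies, 20.79 in YAP-culture iPSCs and 6.062 in control iPSCs. The endothelial list summed to 32.76 to 44.32 FPKM over all libraries, within which Pecam1 fell and Tek rose in colonies. Pecam1 averaged 0.173 FPKM in colonies, 32.42 in YAP-culture iPSCs and 33.88 in control iPSCs, and Tek 42.46, 3.764 and 2.797. The endothelial genes Cdh5 and Kdr were at most 0.0516 and 0.0730 FPKM in any library. The part of feeder or other cells in the results below was not tested. YAP-culture iPSC replicate 3 stood apart from the other libraries of its group in genes of high GC content, and the values this touches are given with it.

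The promoter sequences of 4 genes are shown because these genes lead the differences in the ligand, the receptor, the transcription factor and its inhibitor. They are RefSeq sequences of the GRCm38.p6 build, from 250 bases before to 50 bases after a start site, on the strand of the gene. Capitals mark matches to the STAT motif TTCNNNGAA or to CATTCC, the core motif of the TEAD factors that recruit YAP, searched on both strands. The first motif is its own reverse complement, and the motifs did not overlap in these windows. The windows are chr11:4257318-4257617 (plus strand) for Lif, chr15:7129322-7129621 (plus strand) for Lifr, chr11:100939491-100939790 (minus strand) for Stat3 and chr11:117969317-117969616 (minus strand) for Socs3.
Lif: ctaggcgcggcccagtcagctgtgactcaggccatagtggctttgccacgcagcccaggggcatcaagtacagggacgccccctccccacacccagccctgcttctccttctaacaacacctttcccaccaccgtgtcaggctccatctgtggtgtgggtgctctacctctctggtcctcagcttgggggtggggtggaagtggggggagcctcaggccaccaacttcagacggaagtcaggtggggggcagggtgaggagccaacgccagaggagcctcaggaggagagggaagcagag
Lifr: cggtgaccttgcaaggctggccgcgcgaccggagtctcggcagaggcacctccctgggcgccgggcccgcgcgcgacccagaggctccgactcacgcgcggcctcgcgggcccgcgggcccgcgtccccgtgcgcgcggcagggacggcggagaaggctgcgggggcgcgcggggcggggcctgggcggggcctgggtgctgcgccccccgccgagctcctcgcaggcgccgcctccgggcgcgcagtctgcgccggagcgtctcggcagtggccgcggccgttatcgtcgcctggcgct
Stat3: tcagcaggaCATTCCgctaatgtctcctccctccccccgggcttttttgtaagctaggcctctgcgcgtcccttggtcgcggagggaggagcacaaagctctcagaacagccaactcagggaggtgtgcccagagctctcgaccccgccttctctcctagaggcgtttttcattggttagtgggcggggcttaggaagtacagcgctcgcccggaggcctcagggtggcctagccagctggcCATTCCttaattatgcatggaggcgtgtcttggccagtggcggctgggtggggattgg
Socs3: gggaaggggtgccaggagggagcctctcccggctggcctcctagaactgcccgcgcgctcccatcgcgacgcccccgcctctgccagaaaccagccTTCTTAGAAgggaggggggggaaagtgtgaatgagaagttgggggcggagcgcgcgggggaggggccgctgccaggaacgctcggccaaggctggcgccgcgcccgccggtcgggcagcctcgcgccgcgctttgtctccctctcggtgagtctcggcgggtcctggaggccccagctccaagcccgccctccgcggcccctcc
RefSeq gave 10 promoters for 9 of the 10 genes, with 2 for Lifr. The STAT motif stood in the Socs3 promoter alone among these, as TTCTTAGAA from base -154 relative to the start site, and 8.3% of 32851 promoters of the same length hold it. For Socs3 the RefSeq start differs from that of the deposited locus. Its RefSeq window, with this match, lies inside the deposited locus, downstream of the 5' end of that locus at base 117970047. For Lifr the GENCODE M21 gene starts at base 7090614, upstream of the deposited start at 7129559 and of the window shown. The CATTCC motif stood in the Stat3 promoter alone, starting at bases -241 and -8, and 14.7% of promoters hold it. These matches describe letters in the windows and not bound sites.

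Across the pathway, YAP colonies had more Stat3 and less Lifr than either iPSC group. Against YAP-culture iPSCs, 3 of the 9 tested genes were called, with Stat3 and Lif higher and Lifr lower. Among all tested genes 30.3% were called in this comparison, 15.8% higher and 14.5% lower, so the share of the pathway was near the background. Against control iPSCs, Stat3 was higher and Lifr and Socs3 were lower, again 3 of 9, where 31.8% of all tested genes were called (14.9% higher, 17.0% lower). The median log2 fold change of the 9 genes was 0.30 and 0.33 in these comparisons, against 0.02 and -0.07 over all tested genes. The 2 comparisons share the colony libraries and are not independent of each other. Between the iPSC groups 0 of the 9 genes were called in limma, where 1.39% of all tested genes were (0.507% higher, 0.884% lower), and 2 of the 9 had an unadjusted p below 0.05, as had 4202 of 13808 genes.

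**Figure D1:**
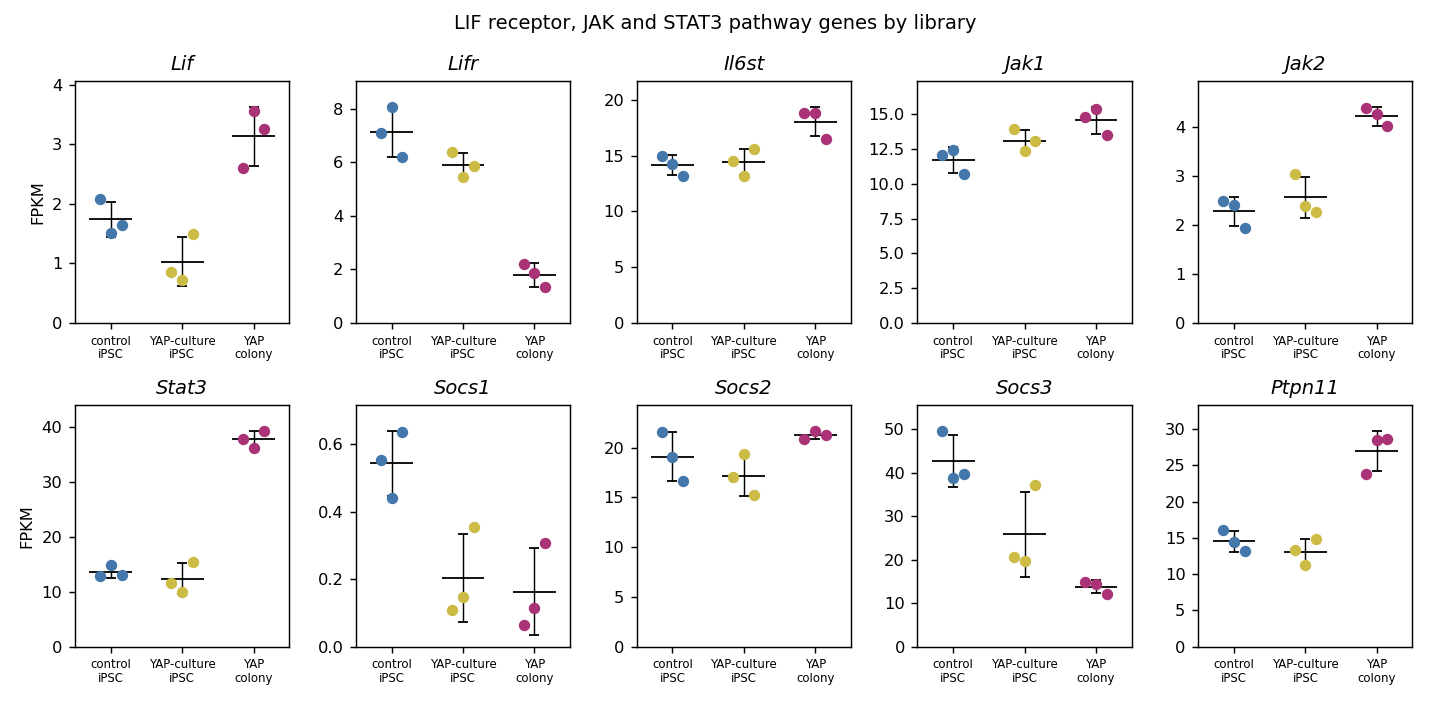
FPKM of the 10 pathway genes in each library (points, 3 per group), with the group mean (bar) and SD (whiskers). Stat3 sat between 36.0 and 39.2 FPKM in the YAP colonies and at or below 15.5 in every iPSC library, and Lifr was at or below 2.20 in the colonies and at or above 5.46 in the iPSCs.

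Lif, which encodes the ligand (chromosome 11, 4257557 to 4272514, mm10, plus strand), was at a low level in every group. It was 2.07, 1.51 and 1.64 FPKM in control iPSC replicates 1, 2 and 3, and 0.855, 0.729 and 1.499 in YAP-culture iPSCs. In YAP colonies it was 2.60, 3.56 and 3.25 FPKM. All colony libraries were above all iPSC libraries, and YAP-culture iPSC replicate 3 was close to the controls. The colonies had a mean of 3.14 ± 0.492 FPKM (SD, n = 3) against 1.03 ± 0.413 in YAP-culture iPSCs, and limma gave a log2 fold change of 1.04 ± 0.173 (SE) with an adjusted p of 0.000795. The fold stood close to the threshold, and without YAP-culture iPSC replicate 1 or 2 or colony replicate 2 it was 0.99, 0.93 or 0.97 and no longer called, as with a pseudocount of 5 (0.43). Against control iPSCs, Lif had a log2 fold change of 0.59 ± 0.173 with an adjusted p of 0.0161 and was not called. This transcript is that of the cells, and LIF added to the medium is not measured by it.

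Of the other ligands of the interleukin-6 family, 1 of 7 was tested, the cardiotrophin gene Ctf1, and Cntf was listed at 0 in every library. Ctf1 was 4.04, 2.68 and 2.84 FPKM in the YAP colonies, above 1.296, 1.03 and 0.846 in YAP-culture iPSCs. Its log2 fold change was 1.02 ± 0.192 with an adjusted p of 0.00170 in limma, called higher. It was under the fold threshold at 0.94 without YAP-culture iPSC replicate 3, 0.87 without colony replicate 1, 0.98 with median-ratio scaling and 0.89 with GC correction. Against control iPSCs, where it was 1.46, 1.36 and 2.48 FPKM, its log2 fold change was 0.61 with an adjusted p of 0.0230 in limma.

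Lifr encodes the subunit that binds LIF (chromosome 15, 7129559 to 7197489, plus strand). It was 7.11, 8.08 and 6.22 FPKM in control iPSCs and 6.38, 5.46 and 5.88 in YAP-culture iPSCs. In the YAP colonies it was 2.20, 1.87 and 1.33 FPKM, well below every iPSC library, while the iPSC groups overlapped. Lifr fell in the colonies by 1.31 on the log2 scale against YAP-culture iPSCs (SE 0.144, adjusted p = 6.14e-05, limma) and by 1.55 against control iPSCs (SE 0.144, adjusted p = 2.08e-05, limma). In ratios of mean FPKM, it was 3.28-fold and 3.97-fold lower. With a pseudocount of 5 in place of 1 the log2 fold changes were -0.68 and -0.84 and Lifr was not called. In bulk samples such as these, fewer cells that express a gene and less of its RNA per cell cannot be told apart.

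Il6st encodes gp130, the signalling subunit shared by the whole cytokine family (chromosome 13, 112464070 to 112510086, plus strand). It was 15.004, 14.3 and 13.2 FPKM in control iPSCs, 14.5, 13.2 and 15.6 in YAP-culture iPSCs and 18.8, 18.8 and 16.5 in YAP colonies. The colony libraries lay above all iPSC libraries by a small margin. The log2 fold change was 0.30 ± 0.101 against YAP-culture iPSCs (adjusted p = 0.0286, limma) and 0.33 ± 0.101 against control iPSCs (adjusted p = 0.0197, limma), both short of the fold threshold. The 2 subunits thus moved apart in level. The ratio of Il6st to Lifr FPKM was 2.11, 1.77 and 2.13 in control iPSCs, 2.28, 2.42 and 2.65 in YAP-culture iPSCs and 8.56, 10.07 and 12.45 in YAP colonies. No colony library overlapped an iPSC library, and 0.1 is the smallest two-sided p that an exact permutation test of 3 against 3 libraries can give.

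Among 5 other receptor genes of the family, 2 passed the filter on low values, Cntfr and Il11ra1. Cntfr, the ciliary neurotrophic factor receptor, was 1.92, 1.54 and 2.57 FPKM in YAP colonies, above 0.454, 1.01 and 0.925 in YAP-culture iPSCs and 1.01, 0.789 and 0.599 in control iPSCs. Its log2 fold changes were 0.74 and 0.73. Cntfr averaged 0.796 FPKM in YAP-culture iPSCs and 0.800 in control iPSCs. It thus passed the filter on low values only through the colonies, so no test is read for it. Il11ra1, the interleukin-11 receptor, was not called in any of the 3 comparisons and ranged from 1.93 to 10.1 FPKM within the control iPSCs alone. Osmr, the receptor of oncostatin M, and Il6ra, that of interleukin-6, were under the filter.

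**Figure D2:**
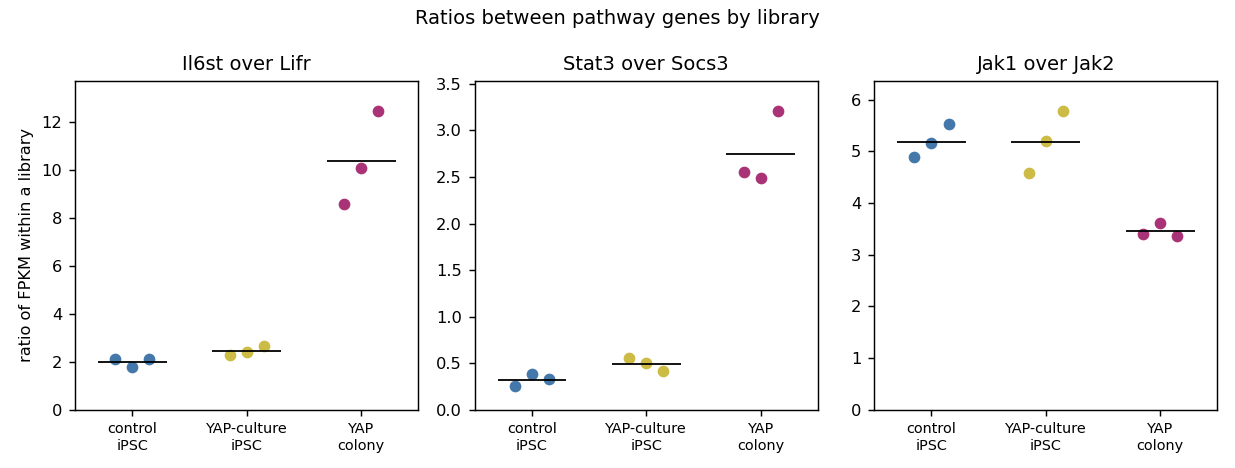
Ratios of FPKM within each library (points, 3 per group; bars are means) for Il6st over Lifr, Stat3 over Socs3 and Jak1 over Jak2. Il6st over Lifr was 8.56 to 12.45 in YAP colonies and at most 2.65 in iPSCs, Stat3 over Socs3 was 2.49 to 3.21 against at most 0.56, and Jak1 over Jak2 was at most 3.62 in colonies and at least 4.58 in iPSCs.

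Jak1, the kinase that gp130 signalling depends on most (chromosome 4, 101152367 to 101265282, minus strand), varied little. It was 12.1, 12.4 and 10.7 FPKM in control iPSCs, 13.9, 12.3 and 13.1 in YAP-culture iPSCs and 14.8, 15.4 and 13.5 in YAP colonies. Its log2 fold change was 0.14 between colonies and YAP-culture iPSCs, whose libraries overlapped, with a 95% interval of -0.08 to 0.37 (adjusted p = 0.243, limma). Against control iPSCs it was 0.29 (adjusted p = 0.0295, limma), short of the fold threshold.

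Jak2 (chromosome 19, 29251828 to 29313080, plus strand), the kinase best known downstream of the erythropoietin and growth hormone receptors, was 2.48, 2.41 and 1.93 FPKM in control iPSCs and 3.04, 2.38 and 2.26 in YAP-culture iPSCs. In YAP colonies it was 4.38, 4.25 and 4.003 FPKM, above every iPSC library. The log2 fold changes of 0.56 ± 0.123 (adjusted p = 0.00409, limma) and 0.67 ± 0.123 (adjusted p = 0.00136, limma) against YAP-culture and control iPSCs were not called. Per length, Jak1 stayed above Jak2 in every library. The ratio of Jak1 to Jak2 was 4.88, 5.15 and 5.53 in control iPSCs, 4.58, 5.19 and 5.78 in YAP-culture iPSCs and 3.39, 3.62 and 3.37 in colonies, lower in each colony library than in any iPSC library.

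Stat3, the transcription factor of the pathway (chromosome 11, 100885098 to 100939540, minus strand), had the largest rise of the 9 tested genes in the colonies. It was 12.8, 14.9 and 12.97 FPKM in control iPSCs, 11.6, 9.94 and 15.5 in YAP-culture iPSCs and 37.8, 36.0 and 39.2 in YAP colonies. The colony libraries lay close together and far above the iPSCs, which overlapped each other. Stat3 rose 3.06-fold in mean FPKM over YAP-culture iPSCs, with a log2 fold change of 1.56 ± 0.149 and an adjusted p of 2.51e-05 in limma. Over control iPSCs it rose 2.78-fold, with a log2 fold change of 1.41 ± 0.149 and an adjusted p of 4.49e-05 in limma. The locus overlaps Stat5a on the opposite strand by 72 bases, and whether counting used the strand is not given in the sources used here. Stat5a was listed at 3.17, 0 and 0 FPKM in control iPSCs, at 0, 2.59 and 3.73 in YAP-culture iPSCs and at 0 in the 3 colony libraries. Transcript levels say nothing of STAT3 phosphorylation.

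The inhibitor Socs3 went the other way (chromosome 11, 117966079 to 117970047, minus strand). It was 49.7, 38.9 and 39.8 FPKM in control iPSCs, 20.6, 19.7 and 37.1 in YAP-culture iPSCs and 14.8, 14.4 and 12.2 in YAP colonies. The 3 groups did not overlap, and YAP-culture iPSC replicate 3 lay next to the controls. Socs3 fell in the colonies by 1.56 on the log2 scale against control iPSCs (SE 0.228, adjusted p = 0.000348, limma), a 3.10-fold lower mean. Against YAP-culture iPSCs the log2 fold change was -0.80 ± 0.228 (adjusted p = 0.0142, limma) and not called. Without YAP-culture iPSC replicate 3 it was -0.52 (limma adjusted p = 0.0102), and without colony replicate 3 it was -0.72 (limma adjusted p = 0.0531). It was -1.08 and called with GC correction of the libraries, a setting chosen after seeing the data. The ratio of Stat3 to Socs3 was 0.26, 0.38 and 0.33 in control iPSCs, 0.56, 0.50 and 0.42 in YAP-culture iPSCs and 2.55, 2.49 and 3.21 in YAP colonies, so that Socs3 exceeded Stat3 in each iPSC library and Stat3 exceeded Socs3 in each colony library.

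Between the iPSC groups Socs3 had the largest difference of the 9 tested genes, a log2 fold change of -0.76 in YAP-culture iPSCs with a 95% interval of -1.28 to -0.24 and an adjusted p of 0.0870 in limma, not called. Without YAP-culture iPSC replicate 3 it was -1.04 with an adjusted p of 0.00380 and called. The longest Socs3 transcript has a GC content of 58.7%. Over the 2852 tested genes above 55% GC, the median deviation from the mean of the iPSC libraries was -0.39 and -0.54 on the log2 scale in YAP-culture iPSC replicates 1 and 2, and 0.25 in replicate 3. In control iPSC replicates 1, 2 and 3 it was 0.38, 0.13 and 0.16. After each library was corrected for its trend over GC content, the log2 fold change of Socs3 was -0.31 with an adjusted p of 0.235 in limma.

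**Figure D3:**
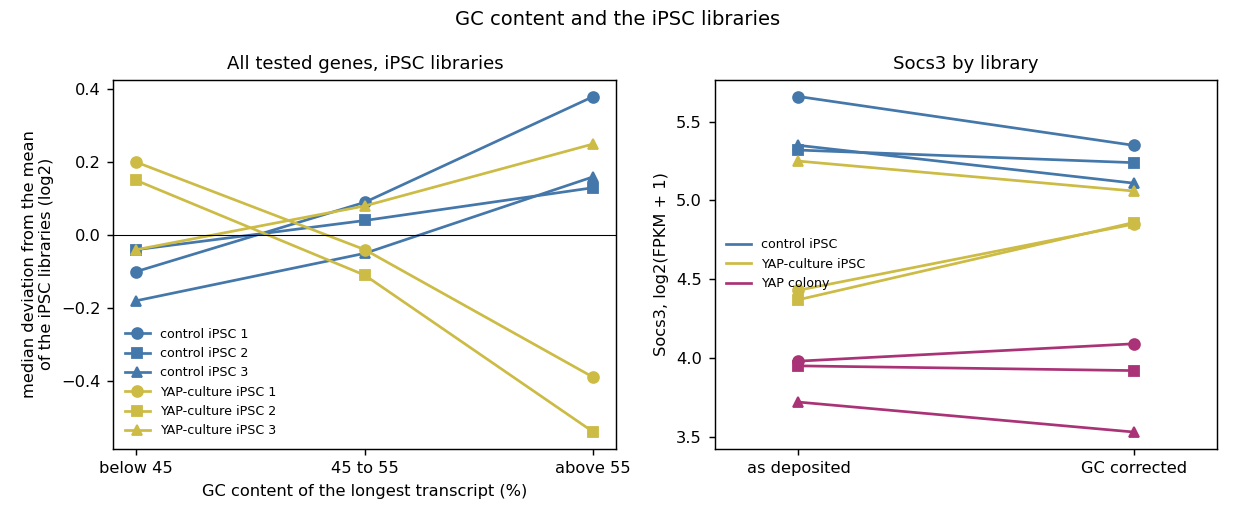
Left, median log2 deviation of each iPSC library from the mean of the iPSC libraries, for tested genes in 3 ranges of transcript GC content. Right, log2(FPKM + 1) of Socs3 in each library as deposited and after GC correction, where the difference of YAP-culture from control iPSCs went from -0.76 to -0.31.

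Socs1, which binds and inhibits JAK kinases (chromosome 16, 10783808 to 10785536, minus strand), was under the filter in all. It was 0.552, 0.441 and 0.634 FPKM in control iPSCs, 0.110, 0.146 and 0.353 in YAP-culture iPSCs and 0.0631, 0.115 and 0.308 in YAP colonies. The controls lay above both other groups, which overlapped, and the gene was not tested at these levels.

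Socs2, which restrains growth hormone signalling (chromosome 10, 95385362 to 95417180, minus strand), was among the higher genes of the pathway in all groups. It was 21.6, 19.0 and 16.7 FPKM in control iPSCs, 17.0, 19.3 and 15.2 in YAP-culture iPSCs and 20.9, 21.7 and 21.3 in colonies. Its log2 fold change in the colonies was 0.30 against YAP-culture iPSCs, with a 95% interval of 0.02 to 0.58 (adjusted p = 0.0605, limma), and 0.16 against controls, with an interval of -0.12 to 0.43 (adjusted p = 0.289, limma).

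Ptpn11, the gene of SHP2 (chromosome 5, 121130533 to 121191397, minus strand), was 16.0, 14.4 and 13.2 FPKM in control iPSCs and 13.3, 11.2 and 14.8 in YAP-culture iPSCs. It was 23.8, 28.5 and 28.7 FPKM in YAP colonies, with every colony library above every iPSC library. The mean was 2.06-fold that of YAP-culture iPSCs, and the log2 fold change of 0.99 ± 0.131 (adjusted p = 0.000190, limma) stood just under the fold threshold. It was 1.00, 1.08 and 1.08, and called, without YAP-culture iPSC replicate 1, YAP-culture iPSC replicate 3 or colony replicate 1. Against control iPSCs it was 0.85 ± 0.131 (adjusted p = 0.000481, limma). The locus overlaps the gene model Gm42930 on the same strand by 3260 bases, and the split of reads between them is uncertain.

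**Figure D4:**
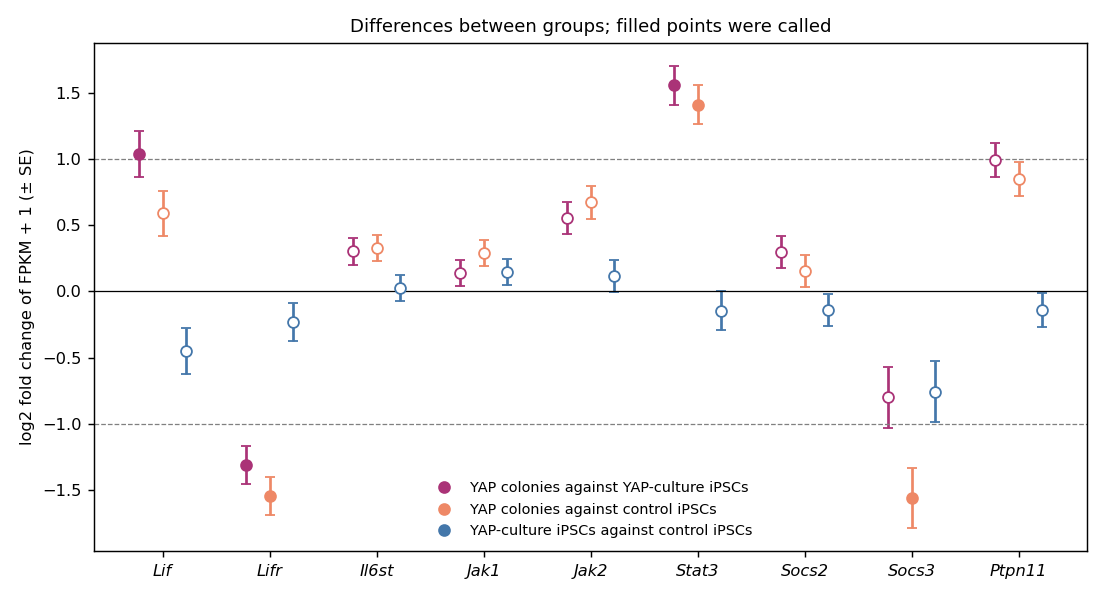
Log2 fold change of FPKM + 1 with its SE for the 9 tested genes in 3 comparisons. Filled points were called, and dashed lines mark the fold threshold of 1. Lifr and Stat3 lie beyond the lines in both comparisons of YAP colonies, from -1.55 to -1.31 and from 1.41 to 1.56, while all points between the iPSC groups are open.

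By adjusted p alone, 7 of the 9 tested genes passed in colonies against YAP-culture iPSCs, where 59.4% of all tested genes did, and 8 of 9 against control iPSCs, where 61.2% did. Between the iPSC groups 0 of 9 passed, against 4.56% of all tested genes. Beside Socs3 and Lif, whose log2 fold change was -0.45 (adjusted p = 0.130, limma), the 7 other genes lay between -0.23 for Lifr and 0.15 for Jak1.

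The order of levels per length within the pathway differed between groups. In control iPSCs Socs3 was highest with a mean of 42.8 ± 5.98 FPKM, followed by Socs2 at 19.1 ± 2.47. Ptpn11, Il6st and Stat3 came next, between 14.5 and 13.5, and all overlapped one another. They overlapped neither Socs2 above nor Jak1 below. Below them stood Jak1, Lifr, Jak2, Lif and Socs1, of which Jak2 and Lif overlapped. YAP-culture iPSCs also had Socs3 first, at 25.8 ± 9.78 FPKM, with Socs2, Il6st, Jak1, Ptpn11 and Stat3 overlapping in sequence below it. In YAP colonies Stat3 came first at 37.7 ± 1.58 FPKM, then Ptpn11 at 27.0 ± 2.77, Socs2 at 21.3 ± 0.409 and Il6st at 18.1 ± 1.32. Jak1 and Socs3, at 14.6 and 13.8 FPKM, overlapped there, and Lifr at 1.80 ± 0.440 stood below Lif, leaving only Socs1 under it.

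Other JAK and STAT genes moved both ways in the colonies. Of 8 tested, 1 rose and 3 fell against YAP-culture iPSCs, with a median log2 fold change of -1.14, and 2 rose and 5 fell against control iPSCs, with a median of -1.45. Over all tested genes 15.8% rose and 14.5% fell in the first comparison, and 14.9% rose and 17.0% fell in the second. Stat4, Stat5a and Jak3 had colony means of 0, 0 and 0.930 FPKM and passed the filter on low values only through the iPSCs. The counts and medians of this list are therefore not read against the shares over all tested genes. The number of the 8 that fell against YAP-culture iPSCs, 3 as reported, was 6 without replicate 1 of that group and 5 without replicate 2. It was 5 with a pseudocount of 0.1, 1 with a pseudocount of 5 and 6 with GC correction. Stat5b, which signals for growth hormone and cytokines, was 3.95, 4.91 and 4.27 FPKM in YAP colonies and at most 2.42 in the iPSCs, and rose by 1.17 (adjusted p = 0.00146) and 1.03 (adjusted p = 0.00295, both limma) on the log2 scale. Without control replicate 3 or colony replicate 2 the difference from controls was 0.95 or 0.96 and not called. Stat4, which acts downstream of interleukin-12, was 2.61 to 4.59 FPKM in the iPSCs and listed at 0 in the 3 colony libraries. Stat6, the factor of interleukin-4, was 13.2 to 19.4 FPKM in the iPSCs and 0, 5.56 and 0 in the colonies, and a listed 0 can be a failed estimate in such a table, where 315 rows hold a 0 beside a value over 20. Jak3, a kinase of lymphoid cytokine receptors, was 9.17, 8.97 and 8.33 FPKM in control iPSCs, 2.17, 1.60 and 4.77 in YAP-culture iPSCs and 0.981, 0.901 and 0.908 in colonies. It fell by 2.35 in colonies against controls (adjusted p = 5.28e-05, limma) and by 1.44 in YAP-culture iPSCs against controls (adjusted p = 0.0246, limma). The latter call was lost without any 1 of the controls, YAP-culture iPSC replicate 1 or 2, or colony replicate 2 or 3, with adjusted p up to 0.104. It was also lost with the compared groups fitted alone (limma adjusted p = 0.105), and with a pseudocount of 5 or GC correction at log2 fold changes of -0.84 and -0.91.

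Further inhibitors did not move as a block. Of 12 tested, 2 rose and 3 fell in the colonies in both comparisons, with medians of 0.09 and 0.07. The shares over all tested genes were 15.8% higher and 14.5% lower against YAP-culture iPSCs, and 14.9% and 17.0% against control iPSCs. Cish, a STAT5-induced inhibitor, was 6.79, 8.66 and 7.87 FPKM in colonies and at most 2.27 in the iPSCs, and rose by 1.94 and 1.69 on the log2 scale (adjusted p = 8.80e-05 and 0.000203, limma). Socs5 was 8.72, 8.59 and 8.79 FPKM in colonies and at most 2.92 in iPSCs, and rose by 1.47 and 1.38 (adjusted p = 2.74e-06 and 3.79e-06, limma). Ptpn6, the phosphatase SHP1 of blood cells, was 1.58, 1.56 and 1.87 FPKM in colonies, 9.66, 10.6 and 12.7 in YAP-culture iPSCs and 16.8, 18.2 and 16.7 in control iPSCs. It fell in colonies, with log2 fold changes of -2.16 and -2.77 (adjusted p = 7.01e-07 and 1.52e-07, limma), and its difference of -0.61 between the iPSC groups (adjusted p = 0.0300, limma) was under the fold threshold. Ptpn2, a phosphatase that acts on JAK1 and STAT proteins, fell with log2 fold changes of -1.32 and -1.20 (adjusted p = 3.49e-05 and 6.31e-05, limma), from means of 46.8 and 42.6 to 18.0 FPKM.

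STAT3 target genes split in the colonies. Of 10 tested, 2 rose and 4 fell against YAP-culture iPSCs (median log2 fold change -0.56), and 2 rose and 6 fell against control iPSCs (median -1.68). Over all tested genes 15.8% rose and 14.5% fell in the first comparison, and 14.9% rose and 17.0% fell in the second. Tfcp2l1 passed the filter on low values only through the iPSCs, so the counts of falls, which include it, are not read against these shares. The targets that fell most, Tfcp2l1 and Klf5, are pluripotency transcription factors, but Klf4 and Gbx2, pluripotency factors of the same list, did not fall. Klf4 averaged 55.8 FPKM in control iPSCs, 73.8 in YAP-culture iPSCs and 89.6 in colonies, and Gbx2 4.04, 3.45 and 4.19. Tfcp2l1 was 44.9, 53.1 and 40.8 FPKM in control iPSCs, 79.8, 78.8 and 77.8 in YAP-culture iPSCs and 0.303, 0.659 and 0.401 in colonies, a log2 fold change of -5.79 and -5.02 (adjusted p = 7.52e-09 and 1.14e-08, limma). Klf5 fell with log2 fold changes of -3.68 and -3.65 (adjusted p = 1.05e-07 and 9.93e-08, limma), to 1.75, 1.98 and 1.37 FPKM. Myc, the growth-promoting factor, was 336, 413 and 454 FPKM in colonies, 15.7, 18.4 and 27.7 in YAP-culture iPSCs and 5.96, 5.14 and 5.27 in control iPSCs. It rose by 4.25 and 5.95 in colonies and by 1.71 in YAP-culture iPSCs over controls (adjusted p = 3.39e-07, 4.67e-08 and 0.00681, limma), where the last was 0.0554 with the compared groups fitted alone. Because the labels do not name the reprogramming factors, whether these reads include a delivered Myc cannot be told apart from the native gene, and the same holds for Klf4. Junb, an AP-1 factor, was 3.22, 4.74 and 5.39 FPKM in colonies and at most 1.72 in iPSCs, and rose by 1.82 and 1.11 (adjusted p = 0.000573 and 0.00903, limma). Without control replicate 2 or colony replicate 3 the difference from controls was 0.99 or 0.98, and with a pseudocount of 0.1 it was 1.49 and not called (limma adjusted p = 0.0575). Ier3, an immediate early gene, fell from 16.6, 11.5 and 11.7 FPKM in control iPSCs to 4.20, 3.38 and 5.95 in YAP-culture iPSCs, by 1.38 on the log2 scale (adjusted p = 0.0144, limma). That call was lost without control replicate 1 or 3 or YAP-culture iPSC replicate 1, with adjusted p up to 0.0717, with the compared groups fitted alone (limma adjusted p = 0.0764), and with a pseudocount of 5 at -0.94.

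Genes of the SHP2, RAS and PI3K arm also split, with 2 of 15 higher and 4 lower against YAP-culture iPSCs (median 0.29) and 2 higher and 3 lower against control iPSCs (median 0.22). The shares over all tested genes were 15.8% higher and 14.5% lower in the first comparison, and 14.9% and 17.0% in the second. Gab1, the docking protein of SHP2, was 15.2, 14.1 and 14.1 FPKM in colonies and 42.3 to 50.9 in iPSCs, and fell with log2 fold changes of -1.64 and -1.59 (adjusted p = 1.23e-06 and 1.43e-06, limma), while Ptpn11 itself was higher. Tbx3, a pluripotency factor held to be downstream of PI3K signalling in mouse embryonic stem cells, fell with log2 fold changes of -3.69 and -3.23 (adjusted p = 5.48e-08 and 1.06e-07, limma). Pik3r1, the regulatory subunit of PI3K, was 5.85, 5.54 and 5.08 FPKM in colonies and at most 2.04 in iPSCs, and rose by 1.14 and 1.22 (adjusted p = 1.24e-05 and 7.70e-06, limma). The kinase gene Akt1 was 47.2, 63.8 and 63.7 FPKM in colonies, 9.23, 7.73 and 19.4 in YAP-culture iPSCs and 32.7, 23.2 and 26.5 in control iPSCs. It rose by 2.26 and 1.06 (adjusted p = 0.000201 and 0.0141, limma), and the second call was lost without control replicate 2 (0.95) or colony replicate 2 (0.98) or 3 (0.99). Its longest transcript has a GC content of 59.7%. Nras differed by 0.52 between the iPSC groups (adjusted p = 0.0472, limma), not called. In the fit as described, Jak3, Myc and Ier3 were the genes of these lists called between the iPSC groups, where 1.39% of all tested genes were. That set of 3 genes depended on the fit, since none was called with the compared groups fitted alone. Without YAP-culture iPSC replicate 3 the genes called lower included 3 STAT3 targets in place of 1 and 2 genes of the SHP2 arm in place of 0. Over all tested genes the number called lower went from 122 to 909 in that setting.

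**Figure D5:**
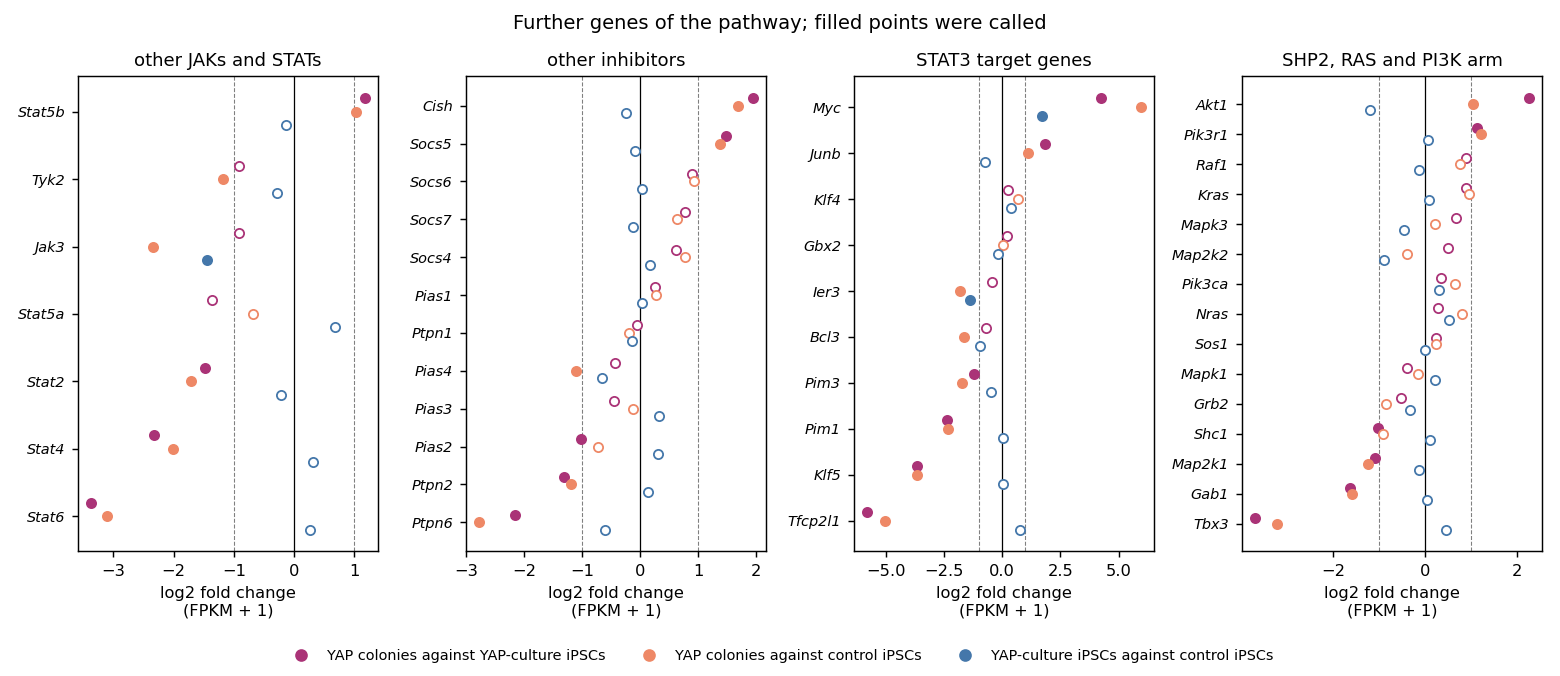
Log2 fold change of FPKM + 1 for genes of 4 lists of the pathway reported here in 3 comparisons, with filled points called and dashed lines at the fold threshold of 1. Tfcp2l1 (-5.79 against YAP-culture iPSCs) and Myc (4.25) mark the ends of the STAT3 targets.

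Some genes outside the pathway had patterns most like those of its members, by the smallest root mean square difference of centred log2(FPKM + 1) over the 9 libraries. For Stat3 these were Smarcd3 (0.070) and Akr1b10 (0.095), for Lifr Rpp40 (0.083) and Nipsnap3b (0.089), and for Socs3 Prss36 (0.070) and Rpp21 (0.078). Lif was closest to Prdx2 (0.061) and Ap1m1 (0.070), and Ptpn11 to Tnfaip1 (0.039) and Ppp4r1 (0.061). Il6st lay closest to Arel1 (0.041) and Pcyox1 (0.054), Jak1 to Twsg1 (0.038) and Stt3b (0.042), Jak2 to Dcbld2 (0.049) and Atp10d (0.059), and Socs2 to Tbk1 (0.096) and AW209491 (0.102). Small values are reached easily where a gene varies little, as Jak1 and Il6st do. Smarcd3 averaged 0.781 FPKM in control iPSCs, 0.650 in YAP-culture iPSCs and 3.80 in colonies. It thus passed the filter on low values only through the colonies. Its likeness to Stat3 holds on the log2(FPKM + 1) scale, which understates the fold changes of low genes.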

How the data were processed

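Trizol RNA was made into TruSeq Stranded mRNA libraries, per the labels' protocols. TopHat, Cufflinks and mm10 are named, without versions, in the submitters' processing notes. The deposited values are FPKM for each gene in each library. They keep no read depth, so counting intervals are not given, and an exact 0 is reported as listed.

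Tests used R 4.3.3 and limma 3.58.1. Of 48640 rows, the 13808 whose mean over all libraries reached 1 FPKM were fitted together as log2(FPKM + 1), with a mean for each group and a variance prior that follows expression. Fold changes on this scale understate those of low genes. The fit was tested on simulated data. Figures used matplotlib 3.10.9 (Python 3.11.15). Positions are 1-based, mm10, from the deposited loci, and GC content is from the GENCODE M21 annotation.

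The members and lists were chosen with earlier results of these data known. Named genes are all members, the 2 called genes of largest change each way per list and comparison (else the smallest p), and the 2 most alike genes per tested member, leaving out gene-model names. Stat5a, Gm42930, Osmr, Il6ra, Cntf, Klf4, Gbx2 and the marker genes are named outside this rule, after their values were seen. A gene that this rule names was left out of the text. The alternatives tried were pseudocounts of 0.1 and 5, a minimum of 5 FPKM or no filter, quantile normalization, median-ratio scaling, the compared groups alone, a replicate block, an untrended prior and each library left out. GC correction (lowess, span 0.3), protein-coding rows rescaled and 2 libraries left out were added after seeing the data.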

Additional observations from a re-analysis of the deposited data

How the results depend on the processing

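Of the single-gene fold changes under other settings, 1345 kept their direction and side of the threshold, 49 lost a call, 12 gained one and 14 changed sign. The genes called in colonies against YAP-culture iPSCs went from 4184 to 2108 with a pseudocount of 5 and 2421 with a minimum of 5 FPKM, and against control iPSCs from 4396 to 2259 and 2599. The called pathway genes in the first of these went from 3 to 1 under each of these settings, and were 2 to 4 with a library left out. Between the iPSC groups, the 192 calls became 57 with a pseudocount of 5, 114 with the minimum of 5, 36 with the compared groups alone, 1042 without YAP-culture iPSC replicate 3 and control iPSC replicate 3, and 52 to 1048 with 1 library left out, the highest without YAP-culture iPSC replicate 3. The pathway genes called there went from 0 to 1, Socs3, without these 2 libraries, and were 0 to 1 with 1 left out. The share of higher among these 192 calls, 36.5%, was 51.6% with quantile normalization. It was 49.6% with a pseudocount of 0.1 and 11.9% without the 2 libraries. With the pseudocount of 5, the calls of Lif, Ctf1, Lifr, Stat5b, Stat4, Socs5, Junb and Pik3r1 against YAP-culture iPSCs and of Lifr, Stat5b, Cish, Socs5, Junb, Pik3r1 and Akt1 against control iPSCs ended. Rescaling protein-coding rows moved the all-gene median of colonies against controls from -0.07 to 0.08.

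Changes of sign were all between the iPSC groups, in genes not called. Il6st was 0.03, with -0.07 under GC correction, -0.07 without the 2 libraries and -0.02 and -0.03 among the libraries left out. Jak2 was -0.08 and Stat3 0.01 under GC correction. Il11ra1 was -0.08, with 0.04 under quantile normalization, 0.19 under GC correction, 0.01 with protein-coding rows rescaled, 0.34 without the 2 libraries and -0.62 to 0.35 with 1 library left out. The cause was not tested.

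The correlation of deviations ran from -0.141 to 0.188 between same-numbered libraries and from -0.182 to 0.212 between differently numbered ones. These values cannot settle whether same-numbered libraries were made together. With the replicate number as a block, 4184, 4398 and 160 genes were called, of them 3, 3 and 0 pathway genes.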
